A study of Brassica napus with 10 samples.

Results

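ECA4 and P24DELTA5 are a calcium pump and a cargo receptor that act at the endoplasmic reticulum (ER) and the Golgi, and their *Brassica napus* copies were examined one by one in pollen and in embryogenic structures. Members were all genes that the study's ER stress list names ECA4 or P24DELTA5 and that have a row in the raw count table, which gave 4 genes of 59458. The study's list assigns 6 *B. napus* co-orthologs to ECA4 and 4 to P24DELTA5 through their arabidopsis genes. Of these, 2 copies of each have counts. The ECA4 co-orthologs A08p35510.1_BnaDAR, C05p05880.1_BnaDAR, C05p05890.1_BnaDAR and C08p03270.1_BnaDAR, and the P24DELTA5 co-orthologs A06p17950.1_BnaDAR and A08p28760.1_BnaDAR, were not analysed here.

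By the labels, all 10 libraries came from microspore cultures of the DH12075 line carrying the LEC1:LEC1-GFP embryo identity reporter, harvested on day 3. According to the study's methods, each library, of pollen too, was made from independent samples pooled during RNA isolation. Pollen (3 libraries) was cultured at 18 °C with solvent and was not sorted, so it is a bulk culture. Embryogenic structures were induced by heat stress (HS) and trichostatin A (TSA), a drug that blocks histone deacetylases, given at 0.05 µM (HS + TSAlow, 4 libraries) or 0.5 µM (HS + TSAhigh, 3 libraries), were then cultured at a higher temperature than pollen, and were sorted for GFP fluorescence. By the study's account both sorted samples hold mostly embryogenic calli and fewer exine-enclosed embryos. Cell type, sorting, heat stress, TSA and the later temperature therefore change together between pollen and either HS + TSA group and cannot be told apart. The labelled cell types could not be checked against marker genes, since only the ER stress list pairs *B. napus* gene IDs with gene names.

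The ER stores calcium and folds secreted proteins. ECA4 belongs to the ER-type calcium ATPases, P-type pumps that use ATP to move calcium from the cytosol into endomembrane compartments, and many ER chaperones, among them calnexin, calreticulin and BiP, bind calcium in the lumen. P24 proteins are small single-pass membrane proteins that cycle between the ER and the Golgi in COPI- and COPII-coated vesicles. Arabidopsis p24δ5 binds the COPI coat and takes part in returning escaped ER proteins to the ER. *B. napus* is an allotetraploid with an A genome from *B. rapa* and a C genome from *B. oleracea*, so most arabidopsis genes have several copies.

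The 4 genes differ in exon structure, which is given here because reads of similar copies can be counted for the wrong copy. All positions are on the Darmor-bzh version 10 genome, and all 4 genes lie on the minus strand. ECA4.1 (A09p66320.1_BnaDAR) lies on chromosome A09 from 52040737 to 52044759, with 3378 exonic bases in 8 exons. ECA4.2 (C08p50340.1_BnaDAR) lies on chromosome C08 from 39808255 to 39812503, with 3529 exonic bases in 9 exons. Exons 2 to 7 of ECA4.1 have the same lengths, in the same order, as exons 3 to 8 of ECA4.2, namely 73, 122, 282, 378, 110 and 229 bases. This run of 6 exons covers 1194 bases. The ECA4.2 model begins with a separate exon of 30 bases, whereas the ECA4.1 model begins with an exon of 1407 bases. Whether the 30 bases have a counterpart in ECA4.1 was not tested. P24DELTA5.1 (C05p20860.1_BnaDAR) lies on chromosome C05 from 12856581 to 12858084, with 1009 exonic bases in 4 exons of 261, 216, 77 and 455 bases. P24DELTA5.2 (C08p21160.1_BnaDAR) lies on chromosome C08 from 22138211 to 22139386, with 957 exonic bases in 3 exons of 264, 365 and 328 bases. No exon length of one P24DELTA5 model recurs in the other. Sequences of these copies were not used here, so how many reads the copies share was not tested.

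**Figure D1:**
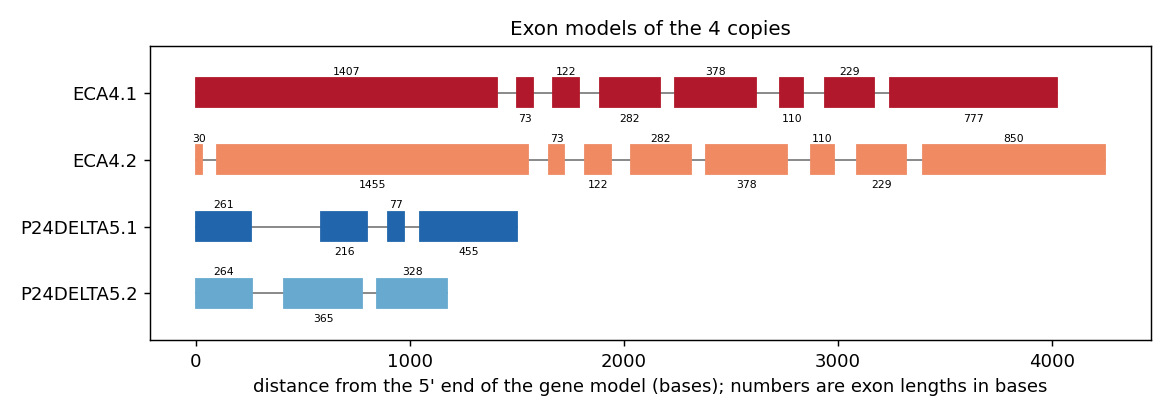
Exon models of the 4 copies, drawn to scale from the 5′ end of each gene model (horizontal axis, bases), with exons as boxes, introns as lines and the length of each exon in bases. The run of 73, 122, 282, 378, 110 and 229 bases appears in both ECA4 models, whereas the P24DELTA5 models have 4 and 3 exons and no length in common.

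Levels are given in CPM, a gene's counts in every 1000000 counts of its library, with totals normalized by TMM (trimmed mean of M-values), so they are relative and not absolute amounts of RNA. In bulk samples, fewer cells of a type and less RNA per cell cannot be told apart. The libraries held 93367646 to 109105528 counts (pollen), 51838498 to 61458274 (HS + TSAlow) and 58468526 to 67884748 (HS + TSAhigh), so depth moves with the comparison with pollen. The members had 1042 to 20664 counts per library. For the lowest of these the counting error is 4.38% if read pairs are taken as independent, which amplified cDNA does not guarantee, and this is below the spread between replicates of any member in any group (coefficients of variation from 6.81% to 27.7%). Comparisons were made with edgeR's quasi-likelihood test over all 45264 genes that passed a filter on low counts, and all 4 members passed it. The threshold for a call was 0.05 after Benjamini-Hochberg adjustment over these genes.

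Both ECA4 copies fell and both P24DELTA5 copies rose in embryogenic structures relative to pollen, at either TSA dose. ECA4.1 was the more abundant ECA4 copy in pollen and the one with the larger decrease. P24DELTA5.1 was the rarer P24DELTA5 copy in pollen and the one with the larger increase as a fold change. For all 4 genes, the 3 pollen libraries lay entirely on one side of the 7 HS + TSA libraries. How many of all genes tested part in this way was not counted. By edgeR 4 of 4 members were called in each comparison. Over all genes tested 17.4% were called lower and 26.4% higher in HS + TSAlow (43.7% in either direction), and 18.8% and 27.5% in HS + TSAhigh (46.2%).

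ECA4.1 had 137, 164 and 190 CPM in the 3 pollen libraries. In HS + TSAlow it had 54.9, 59.1, 73.3 and 60.3 CPM in libraries 1 to 4. In HS + TSAhigh it had 48.0, 69.0 and 59.3 CPM. The lowest pollen library was thus 1.87 times the highest HS + TSAlow library and 1.99 times the highest HS + TSAhigh library, while the HS + TSA groups overlapped. Group means were 164 ± 26.3 CPM (SD, n = 3) for pollen, 61.9 ± 7.95 (SD, n = 4) in HS + TSAlow and 58.8 ± 10.5 (SD, n = 3) in HS + TSAhigh. The log2 fold change from pollen was -1.40 in HS + TSAlow (SE 0.17, 95% interval -1.76 to -1.04, adjusted p = 5.05e-05, edgeR), a level 2.64-fold lower. In HS + TSAhigh it was -1.48 (SE 0.18, 95% interval -1.87 to -1.08, adjusted p = 5.55e-05, edgeR), a level 2.79-fold lower.

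ECA4.2 had 80.7, 95.2 and 94.2 CPM in pollen. In HS + TSAlow it had 60.9, 37.5, 39.0 and 58.8 CPM in libraries 1 to 4, so libraries 1 and 4 were high and libraries 2 and 3 low. In HS + TSAhigh it had 35.2, 49.4 and 47.2 CPM. Here the gap to pollen was narrower than for ECA4.1, with the lowest pollen library at 1.33 times the highest HS + TSAlow library and 1.63 times the highest HS + TSAhigh library. Group means were 90.0 ± 8.08 CPM (SD, n = 3) for pollen, 49.0 ± 12.5 (SD, n = 4) in HS + TSAlow and 44.0 ± 7.63 (SD, n = 3) in HS + TSAhigh. The log2 fold change was -0.88 in HS + TSAlow (SE 0.20, 95% interval -1.31 to -0.44, adjusted p = 0.00408, edgeR) and -1.03 in HS + TSAhigh (SE 0.22, 95% interval -1.51 to -0.56, adjusted p = 0.00229, edgeR). These correspond to levels 1.84-fold and 2.05-fold lower. The intervals of ECA4.1 and ECA4.2 overlap in both comparisons, and the difference between the copies was not tested.

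P24DELTA5.1 had 12.3, 10.7 and 9.56 CPM in pollen, the lowest levels of any member. In HS + TSAlow it had 37.8, 62.9, 42.0 and 36.1 CPM in libraries 1 to 4, with library 2 above the others. In HS + TSAhigh it had 36.5, 44.4 and 45.6 CPM. The lowest HS + TSAlow library was 2.93 times the highest pollen library, and the lowest HS + TSAhigh library 2.97 times. Its log2 fold change was 2.04 in HS + TSAlow (SE 0.22, 95% interval 1.56 to 2.52, adjusted p = 2.67e-05, edgeR) and 1.96 in HS + TSAhigh (SE 0.23, 95% interval 1.46 to 2.45, adjusted p = 3.75e-05, edgeR), that is, 4.12-fold and 3.89-fold higher than in pollen. Its mean was 10.9 ± 1.37 CPM in pollen (SD, n = 3), and the means at the low and the high dose were 44.7 ± 12.4 (SD, n = 4) and 42.2 ± 4.94 CPM (SD, n = 3).

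P24DELTA5.2 had 28.8, 25.4 and 28.3 CPM in pollen, with the smallest relative spread of any member in any group. In HS + TSAlow it had 66.8, 110, 90.8 and 61.0 CPM in libraries 1 to 4. In HS + TSAhigh it had 41.5, 51.8 and 65.3 CPM. Every HS + TSA library was above every pollen library, and 2 of the 3 HS + TSAhigh libraries were below all HS + TSAlow libraries. Group means were 27.5 ± 1.87 CPM (SD, n = 3) for pollen, 82.2 ± 22.8 (SD, n = 4) in HS + TSAlow and 52.9 ± 11.9 (SD, n = 3) in HS + TSAhigh. The log2 fold change from pollen was 1.58 in HS + TSAlow (SE 0.23, 95% interval 1.09 to 2.08, adjusted p = 0.000202, edgeR), a level 2.99-fold higher. In HS + TSAhigh it was 0.94 (SE 0.23, 95% interval 0.44 to 1.45, adjusted p = 0.00607, edgeR), a level 1.92-fold higher. The intervals of P24DELTA5.1 and P24DELTA5.2 overlap in HS + TSAlow. In HS + TSAhigh their nearest ends are 1.464 and 1.453, and the difference between the copies was not tested.

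**Figure D2:**
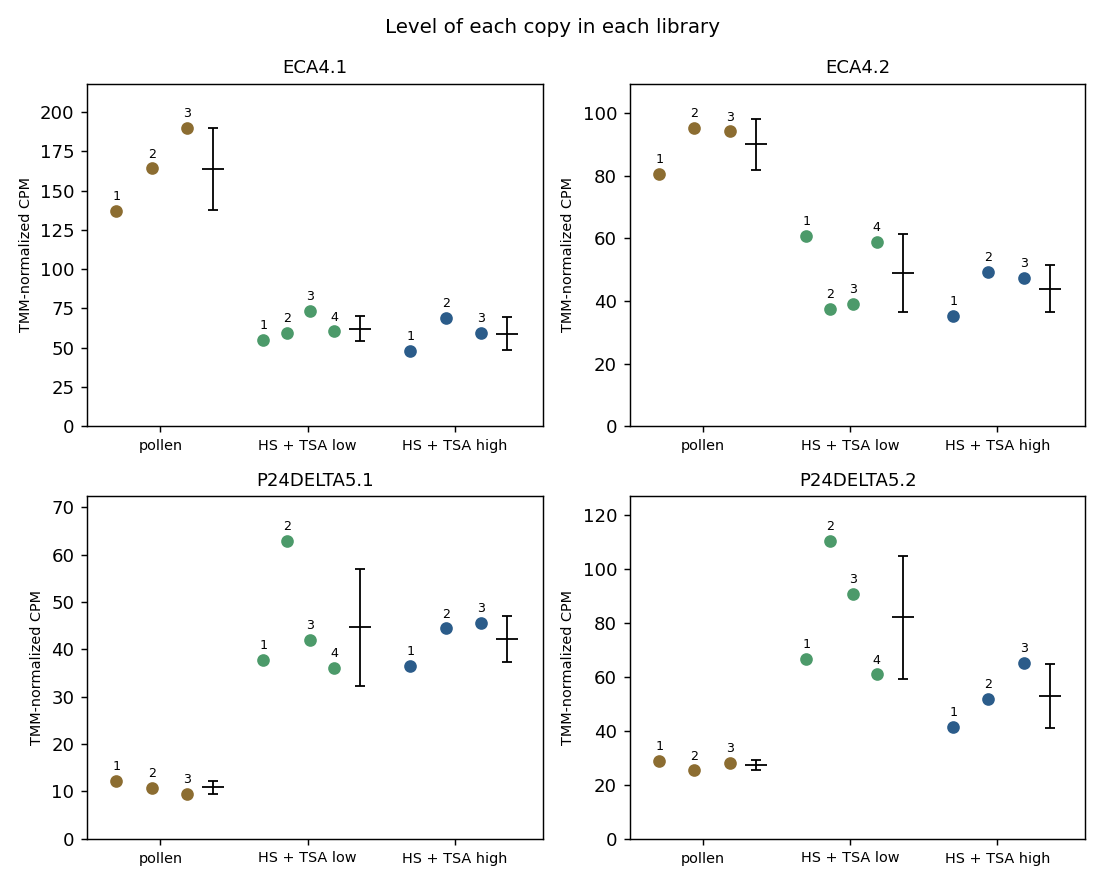
TMM-normalized CPM (vertical axis, from 0) of each copy in each library (points, with the library number) in pollen, HS + TSAlow and HS + TSAhigh; the bar and whiskers beside the points are the group mean and SD. Pollen is above all HS + TSA libraries for both ECA4 copies and below them for both P24DELTA5 copies, and HS + TSAlow libraries 1 and 4 part from libraries 2 and 3 for ECA4.2 and P24DELTA5.2.

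The comparison of TSA doses asked whether the 4 genes differed between embryogenic structures of the low and the high dose. By edgeR 0 of the 4 were called, where 10.4% of all genes were called in either direction (5.46% lower), and 1 of the 4 had an unadjusted p under 0.05. DESeq2, limma-voom and edgeR with the replicate number as a block also called 0. The exception at the unadjusted level was P24DELTA5.2, with a log2 fold change of -0.64 from the low to the high dose (SE 0.22, 95% interval -1.12 to -0.16, adjusted p = 0.0846, edgeR). This result depended on the HS + TSAlow libraries used. P24DELTA5.2 passed without libraries 1 and 4 (log2 fold change -0.93, adjusted p = 0.0376, edgeR). Without libraries 2 and 3 its log2 fold change was -0.28 (adjusted p = 0.394, edgeR). Deviations from the group means in HS + TSAhigh library 1 correlated with HS + TSAlow libraries 1 and 4 across genes (0.372 and 0.303). With HS + TSAlow libraries 2 and 3 the correlations were negative (-0.269 and -0.298). Deviations within a group cancel out, so positive correlations with some of its libraries bring negative ones with others. Whether libraries of the doses are matched, and whether this bears on the fits without some HS + TSAlow libraries, was not tested. P24DELTA5.2 had 41.5 CPM in HS + TSAhigh library 1, against 66.8 and 61.0 in HS + TSAlow libraries 1 and 4. In libraries 2 and 3 it had 51.8 and 65.3 CPM at the high dose, against 110 and 90.8. For the other members the log2 fold change between the doses was -0.08 for ECA4.1 (95% interval -0.44 to 0.29), -0.16 for ECA4.2 (-0.60 to 0.28) and -0.08 for P24DELTA5.1 (-0.53 to 0.36). As ratios of the high to the low dose, these intervals run from 0.739 to 1.22 for ECA4.1, from 0.661 to 1.22 for ECA4.2 and from 0.693 to 1.29 for P24DELTA5.1.

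**Figure D3:**
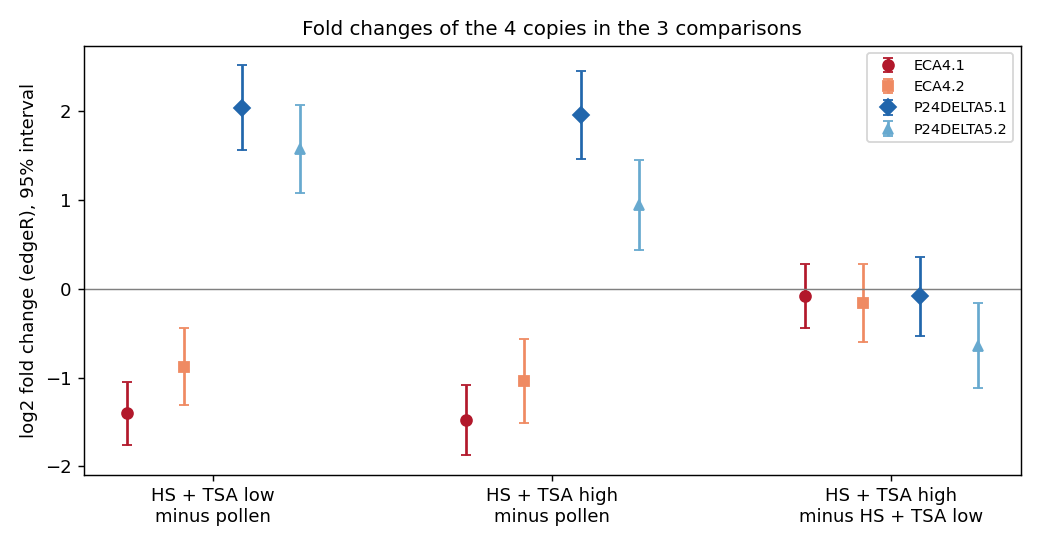
log2 fold change (vertical axis) of each of the 4 copies in the 3 comparisons, with 95% intervals from the edgeR fit. Both ECA4 intervals lie below 0 and both P24DELTA5 intervals above 0 in the comparisons with pollen, which share the same pollen libraries; between the doses only the P24DELTA5.2 interval (-1.12 to -0.16) leaves out 0, with an adjusted p of 0.0846.

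Since reads may move between similar copies, the counted copies were also summed. ECA4 had 218 to 284 CPM over both copies in pollen, 96.6 to 119 in HS + TSAlow and 83.3 to 118 in HS + TSAhigh. Fitted as 1 row, summed ECA4 had log2 fold changes from pollen of -1.19 (SE 0.15, adjusted p = 7.91e-05, edgeR) and -1.30 (SE 0.16, adjusted p = 6.53e-05, edgeR). P24DELTA5 had 36.0 to 41.1 CPM in pollen, 97.0 to 173 in HS + TSAlow and 78.0 to 111 in HS + TSAhigh. Its sum had log2 fold changes of 1.73 (SE 0.21, adjusted p = 6.43e-05, edgeR) and 1.31 (SE 0.22, adjusted p = 0.000463, edgeR). Reads that pass between the counted copies leave these sums as they are, and reads shared with other co-orthologs or with other genes were not tested.

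The share of each copy in the counts of its family varied between libraries. ECA4.1 made up 63.0% to 66.8% of the ECA4 counts in pollen and 55.7% to 58.3% in HS + TSAhigh. In HS + TSAlow its share was 47.4% and 50.6% in libraries 1 and 4, and 61.2% and 65.3% in libraries 2 and 3, so the group spans both. The 3 pollen libraries were above the 3 HS + TSAhigh libraries in this share, while HS + TSAlow overlapped with pollen. P24DELTA5.1 made up 25.3% to 29.9% of the P24DELTA5 counts in pollen, 31.6% to 37.2% in HS + TSAlow and 41.1% to 46.8% in HS + TSAhigh, and these ranges do not overlap. Group means of this share were 28.3% ± 2.61 (SD, n = 3), 35.3% ± 2.503 (SD, n = 4) and 44.7% ± 3.12 (SD, n = 3). Shares compare counts within a library and do not depend on its scaling, and as values combined over members they were given no test. Reads counted for the wrong copy would shift them, unlike the sums.

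**Figure D4:**
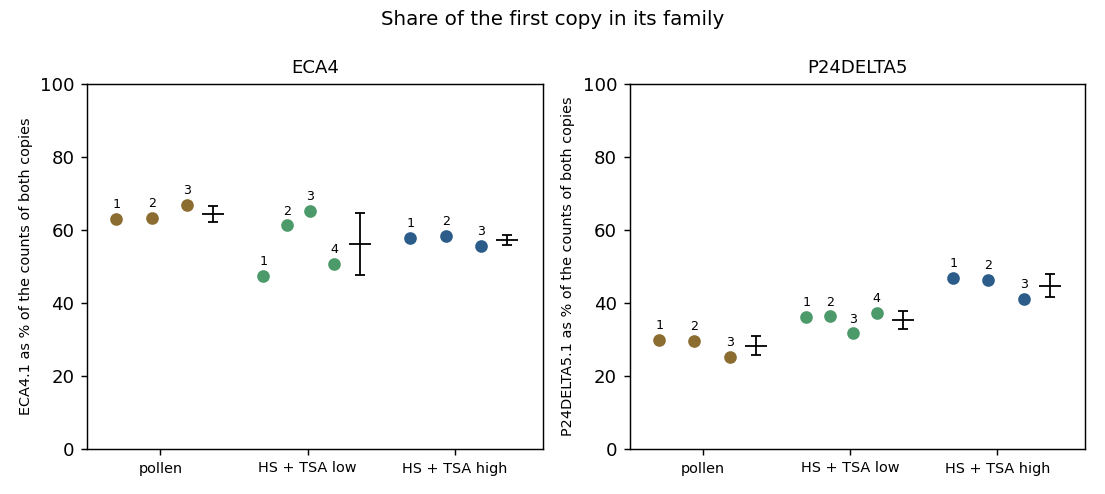
ECA4.1 as a percentage of the counts of both ECA4 copies (left) and P24DELTA5.1 as a percentage of the counts of both P24DELTA5 copies (right) in each library, with the library number, group mean and SD. The P24DELTA5.1 share occupies 3 separate ranges, from 25.3% to 46.8% over all libraries, while the ECA4.1 share in HS + TSAlow runs from 47.4% to 65.3%.

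Within HS + TSAlow, libraries 1 and 4 lay nearer to each other over all genes (correlation of log2 CPM 0.992 across genes) than any other pair of that group (0.948 to 0.971). Their read-pair counts gave a chi-square per degree of freedom of 7.92, more than sampling noise, against 31.1 to 59.2 for the other pairs of the group. They were kept as separate libraries because the labels list them as separate replicates, and whether they share a source was not tested. The 4 members followed this division unevenly. ECA4.2 had 58.8 and 60.9 CPM in libraries 1 and 4 against 37.5 and 39.0 in libraries 2 and 3, whereas P24DELTA5.2 had 61.0 and 66.8 CPM against 90.8 and 110. P24DELTA5.1 was also lower in libraries 1 and 4, and ECA4.1 overlapped between the pairs. Without libraries 1 and 4, the log2 fold change from pollen was -1.24 for ECA4.2 and 1.87 for P24DELTA5.2. Without libraries 2 and 3, it was -0.63 for ECA4.2 and 1.18 for P24DELTA5.2, and both passed the edgeR test in either case (adjusted p from 0.000136 to 0.0239). What sets these libraries apart was not tested.

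Levels of different genes can be compared only per length, and were expressed as CPM per kb of exon. In pollen ECA4.1 was highest of the 4 copies (48.5 ± 7.77, SD, n = 3) and P24DELTA5.1 lowest (10.8 ± 1.36) in all 3 libraries. Between them P24DELTA5.2 (28.7 ± 1.96) and ECA4.2 (25.5 ± 2.29) did not keep the same order in the 3 libraries. In all 7 HS + TSA libraries both P24DELTA5 copies were above both ECA4 copies. P24DELTA5.2 came first, with 85.9 ± 23.8 CPM per kb in HS + TSAlow (SD, n = 4) and 55.3 ± 12.5 in HS + TSAhigh (SD, n = 3), followed by P24DELTA5.1 with 44.3 ± 12.3 and 41.8 ± 4.89. ECA4.1 (18.3 ± 2.35 and 17.4 ± 3.11) and ECA4.2 (13.9 ± 3.54 and 12.5 ± 2.16) had overlapping ranges in HS + TSAlow, where ECA4.2 was above ECA4.1 in library 1. Summed over counted copies, P24DELTA5 stood at 0.471 to 0.667 times the level of ECA4 per kb in pollen, at 2.88 to 6.32 times in HS + TSAlow and at 2.85 to 3.67 times in HS + TSAhigh. Among all genes tested, ECA4.1 ranked above 92.6% of genes per kb in pollen and above 79.2% in HS + TSAlow. P24DELTA5.1 ranked above 68.6% of genes in pollen and above 91.1% in HS + TSAlow.

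**Figure D5:**
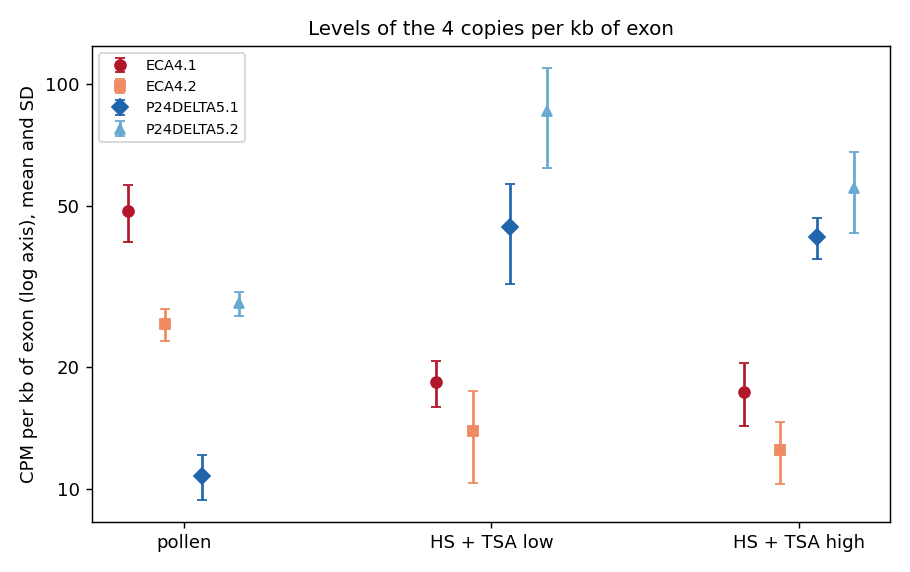
Mean CPM per kb of exon (log axis) of the 4 copies in pollen, HS + TSAlow and HS + TSAhigh, with SD. ECA4.1 is highest in pollen at 48.5, and in both HS + TSA groups the P24DELTA5 copies (41.8 to 85.9) are above the ECA4 copies (12.5 to 18.3).

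Against the rest of the study's ER stress list, the ECA4 copies moved in the more common direction and the P24DELTA5 copies in the less common one. Of the 48 other list genes with counts, 28 fell, 1 rose and 19 were not called by edgeR in HS + TSAlow, with a median log2 fold change of -0.91 against 0.11 over all genes tested. In HS + TSAhigh 27 fell, 1 rose and 20 did not pass, with medians of -0.95 and 0.09. The calcium-binding chaperones and lectins of the list, which are BiP (the HSP70 of the ER lumen), calnexin (CNX1) and calreticulin (CRT1), fell in 12 of 15 genes in HS + TSAlow and in 11 of 15 in HS + TSAhigh. Their median log2 fold changes were -1.31 and -1.38, so that ECA4.1 lay close to their middle and ECA4.2 above it. This middle pools unlike groups, since the medians were -1.63 and -1.55 for BiP, and -0.64 and -1.01 for the lectins CNX1 and CRT1. Of the other list genes, the co-chaperones ERDJ3B and SDF2 had medians of -1.255 and -1.81. The sensors, proteases and transcription factors had -0.57 and -0.72, and the protein disulfide isomerases -0.025 and 0.099. A nearness of ECA4.1 to the calcium-binding genes in particular was not tested. P24DELTA5.1 had the highest and P24DELTA5.2 the next highest log2 fold change of the 52 counted list genes in both comparisons, which share the pollen libraries. Among all genes tested their fold changes were less extreme, with 82.1% and 78.4% of genes below them in HS + TSAlow and 79.4% and 68.8% in HS + TSAhigh. For ECA4.1 and ECA4.2 the corresponding percentages were 8.88% and 18.0% in HS + TSAlow, and 11.6% and 17.3% in HS + TSAhigh. Thus many genes outside the list rose by more than either P24DELTA5 copy.

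The genes most like each member were sought by the root mean square (RMS) difference between profiles of log2(CPM + 1) over the 10 libraries, each centred on its own mean. Within the list, ECA4.1 was nearest to BiP2.1 (A03p17290.1_BnaDAR), with an RMS difference of 0.223. It was followed by BiP2.3 (C03p20410.1_BnaDAR) at 0.245 and by BZIP60.1 (A08p07630.1_BnaDAR), a transcription factor of the unfolded protein response, at 0.248. ECA4.2 was nearest to bZIP17.1 (A04p31300.1_BnaDAR), a membrane-bound transcription factor, at 0.268, then to BZIP60.1 at 0.282 and to BiP3.1 (A09p40070.1_BnaDAR) at 0.296. The ECA4 copies differed from each other by 0.352, more than from any of these. These were picked as the smallest distances in the list, whereas the distance between the copies was not picked. The P24DELTA5 copies were each other's nearest list gene, at 0.402. Next came PDIL1-1/PDI5.3 (C07p21980.1_BnaDAR) and PDIL1-1/PDI5.2 (A08p28820.1_BnaDAR), copies of a protein disulfide isomerase, an enzyme that forms disulfide bonds in the ER. These were at 0.669 and 0.693 from P24DELTA5.1 and at 0.473 and 0.481 from P24DELTA5.2. The RMS differences to all genes tested had medians of 0.790 for ECA4.1, 0.650 for ECA4.2, 0.955 for P24DELTA5.1 and 0.798 for P24DELTA5.2. The nearest genes outside the list were picked from far more genes than those within it, so their distances cannot be compared directly. Outside the list the nearest genes were A01p00350.1_BnaDAR for ECA4.1 (0.090), C08p40660.1_BnaDAR for ECA4.2 (0.112), C01p03400.1_BnaDAR for P24DELTA5.1 (0.135) and A09p12540.1_BnaDAR for P24DELTA5.2 (0.117), for which the files give no gene names.

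The position of the members was examined through the genes within 50 kb on either side. No counted gene overlapped a member. Of 40 such genes 34 were tested, of which 8 fell, 14 rose and 12 did not pass in HS + TSAlow, and 8 fell, 12 rose and 14 did not pass in HS + TSAhigh. Over all genes tested 17.4% were called lower and 26.4% higher in HS + TSAlow, and 18.8% and 27.5% in HS + TSAhigh. The counts of neighbours are small and were not tested against these shares. Around the ECA4 copies genes of both directions were found in HS + TSAlow, with 5 lower and 4 higher of 14 tested around ECA4.1 and 3 lower and 5 higher of 12 around ECA4.2. Around the P24DELTA5 copies 0 genes were called lower, and 2 of 2 tested were higher around P24DELTA5.1 and 3 of 6 around P24DELTA5.2, in both comparisons. Of these 5 neighbours, 3 had mean levels of 0 CPM in pollen and 0.460 to 0.766 CPM in HS + TSAlow. In HS + TSAhigh the one beside P24DELTA5.1 had 0.254 CPM, and the ones beside P24DELTA5.2 had 4.98 and 7.56 CPM and were called higher than in HS + TSAlow. The nearest counted gene to ECA4.2 lies on the opposite strand, with its 3′ end 219 bases from that of ECA4.2, and had log2 fold changes of 1.81 in HS + TSAlow and 1.35 in HS + TSAhigh, opposite to those of ECA4.2. The nearest to P24DELTA5.1 lies on the opposite strand as well, with its 3′ end 123 bases from that of P24DELTA5.1. That gene did not pass the filter on low counts. The nearest to P24DELTA5.2 also lies on the opposite strand, with its 3′ end 589 bases from that of P24DELTA5.2. It had log2 fold changes of 1.92 and 2.31, in the same direction as P24DELTA5.2, at means of 6.87 CPM in pollen, 26.0 in HS + TSAlow and 34.0 in HS + TSAhigh. The library kit does not mark strand, and whether reads pass between a member and its neighbour was not tested. A list gene, PDIL1-1/PDI5.4 (C08p21100.1_BnaDAR), lies 32.4 kb from P24DELTA5.2. It was not called, with edgeR log2 fold changes of 0.40 (SE 0.23, adjusted p = 0.187) and 0.36 (SE 0.25, adjusted p = 0.258).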

How the data were processed

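RNA of 10 samples, each pooled over a column from independent pollen cultures or sorted samples, was reverse-transcribed, amplified (SMART-seq v4) and sequenced. The authors used STAR to align paired reads to Darmor-bzh version 10, counted reads in exons with featureCounts and deposited raw counts per gene. Of the versions, the submitters' notes give 2.7.10a for STAR and 1.5.2 for Subread, whereas the methods of the study differ. How reads mapping to several copies were treated is not given in the sources used here. The authors also deposited normalized counts, a signal in which counts are divided by 1 DESeq2 size factor per library, and their own DESeq2 comparisons (fold changes and p-values), which were not used. No value column lacked a sample (0 columns).

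Of 61170 rows, 1712 exact repeats were removed. Among counts above 20, 69.3% were even, as when both mates of a pair are counted, so library totals overstate independent fragments. After filterByExpr (at least 10 counts in enough libraries and 15 in all) and TMM scaling, the robust quasi-likelihood test of edgeR 4.0.16 in R 4.3.3 was fitted to all 10 libraries together. SEs were derived from the F statistic and the log2 fold change, and 95% intervals from the t distribution. Distances and shares were computed with Python 3.11.15 and pandas 2.3.3. The edgeR script was tested on simulated data. The labels call the libraries biological replicates.

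The members, the gene lists and the tests were chosen with earlier results of these data known. The genes named were the members, the 3 list genes and 1 other gene most like each, and list genes within 50 kb of one. Lists of embryo, pollen, tapetum and heat shock markers could not be tested, since 0 gene IDs matched the RefSeq table. Alternatives were DESeq2 1.42.0, limma 3.58.1 (voom, and on the deposited normalized counts), other scalings, filters, thresholds and pseudocounts, fits of only the groups compared, libraries left out, counts halved to read pairs, repeats kept, copies summed and a replicate block. Deviations from the group means of same-numbered HS + TSAlow and HS + TSAhigh libraries correlated by 0.372, 0.148 and 0.22 across genes, each over 0.1. A block on the number was therefore fitted over all libraries as an alternative, and the main fit has no block. Same-numbered libraries of pollen and either HS + TSA group correlated by -0.004 to 0.111, yet the block includes pollen. Differently numbered libraries also correlated, by 0.303 (HS + TSAlow 4 with HS + TSAhigh 1), 0.23 (2 with 3) and 0.208 (3 with 2), so not every library was nearest to its own number. No label states what the number marks.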

Additional observations from a re-analysis of the deposited data

How the results depend on the processing

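In both comparisons with pollen all 4 members kept their direction and their call in each of the 24 alternative fits. Log2 fold changes in HS + TSAlow ranged from -1.55 to -1.29 for ECA4.1, -1.24 to -0.63 for ECA4.2, 1.73 to 2.27 for P24DELTA5.1 and 1.18 to 1.87 for P24DELTA5.2, and the largest adjusted p over both comparisons was 0.027. At a threshold of 0.01 all 4 were still called in both. With the replicate number as a block, log2 fold changes in HS + TSAlow were -1.39, -0.98, 2.10 and 1.67 in the same order. The block changed no call of a member, and P24DELTA5.2 had an adjusted p of 0.0564 between the doses (edgeR). Library 4 of HS + TSAlow has no same-numbered partner and adds nothing to that fit.

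Between the doses, small differences changed sign. With each library left out in turn, ECA4.1 ranged from -0.20 to 0.051 and P24DELTA5.1 from -0.17 to 0.13. ECA4.1 became 0.017 without HS + TSAlow replicate 3, 0.051 without HS + TSAhigh replicate 1 and 0.022 without HS + TSAlow libraries 2 and 3. ECA4.2 became 0.20 without HS + TSAlow libraries 1 and 4. P24DELTA5.1 became 0.13 without HS + TSAlow replicate 2, 0.01 without HS + TSAhigh replicate 1 and 0.18 without HS + TSAlow libraries 2 and 3. The number of members called lower became 1 (P24DELTA5.2) without HS + TSAlow libraries 1 and 4, and its log2 fold change ranged from -0.93 to -0.28 over the alternatives (adjusted p from 0.0376 to 0.394). The cause was not tested. A pseudocount of 5 CPM raised the P24DELTA5.1 share in pollen to 32.8%, since it is large beside levels near 10 CPM. The other 48 list genes gave 24 to 33 lower and 1 to 3 higher in HS + TSAlow, 23 to 31 and 0 to 2 in HS + TSAhigh, and 0 to 2 and 0 to 5 between the doses. Over all genes the calls between the doses, 2473 lower and 2236 higher, became 3894 and 4298 with DESeq2, 1489 and 1781 with only the groups compared, 1667 and 1169 with the replicate block, and 1341 and 639 without HS + TSAlow libraries 1 and 4. With each library left out in turn these calls ranged from 1144 to 3283 lower and from 907 to 3194 higher. Every member had at least 1042 counts in each library, and the effect of the number of libraries was not tested.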
